A study of Mus musculus with 11 samples.

Results

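Nitric oxide (NO) and cyclic GMP (cGMP) signalling was followed through 10 genes among the 36666 of a gene count table, in poly(A)+ RNA from the cerebrum of 11 mice. They were taken by symbol and are the NO synthases Nos1, Nos2 and Nos3, the soluble guanylate cyclase subunits Gucy1a2, Gucy1a3 and Gucy1b3, the phosphodiesterase Pde5a, the kinase Prkg1 and the hydrolases Ddah1 and Ddah2. The genes were chosen by a rule that used their counts in mutator against control mice, scaled to library size. Every difference between the genotypes in these 10 genes is therefore given as a description. Where calls of a fit over all genes are counted among them, the count stands beside the share over all genes, and no p-value of theirs is taken as support.

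The mice were males of strain C57/Bl6 aged 1 year. The 7 mutators were homozygous for the D257A allele of Polg (D257A/D257A), which removes the proofreading of the mitochondrial DNA polymerase in all tissues. The 4 controls were littermates, of which 3 were WT/WT (mice 205, 239 and 246) and 1 was WT/D257A (mouse 237). The library totals came to between 28249345 and 121182250 gene counts in the controls and between 37821243 and 91219204 in the mutators. Polg itself carries a point mutation, so its counts, at 66.1 ± 2.98 CPM (counts scaled to a common library size; SD, n = 4) in the controls and 63.9 ± 4.18 (n = 7) in the mutators, do not check the labels. Mutator mouse 248 had 3.00 gene counts per aligned read listed for it, against 0.744 to 0.775 in the other 10 mice. All 4 neuron markers in the table were high in every mouse, with a summed level of 4717 to 5305 CPM. The 3 cerebellar markers summed to 0.981 to 1.19 CPM in the controls and 0.909 to 7.07 in the mutators. The libraries were run in pools, and the pool of each mouse is not given in the sources used here. In whole tissue, fewer cells of a type and less RNA per cell cannot be told apart.

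NO is a diffusible messenger made from arginine by the NO synthases. It activates soluble guanylate cyclase, a dimer of an alpha and a beta subunit, which makes cGMP from GTP. cGMP acts on kinases, ion channels and phosphodiesterases, and in the brain this route is known from synaptic signalling and from the widening of blood vessels. Asymmetric dimethylarginine, an inhibitor of the synthases, is broken down by the Ddah enzymes.

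Per length of exon, the beta subunit of the cyclase was the most abundant of the 10 mRNAs and the inducible synthase the least. Gucy1b3, which every NO-sensitive cyclase dimer needs, stood at 58.5 ± 2.65 CPM per kb (SD, n = 11). It was followed by the alpha subunit Gucy1a3 at 26.3 ± 1.30 CPM per kb and by Ddah1 at 25.0 ± 1.69. Gucy1a2, the other alpha subunit, reached 7.67 ± 0.791 and Nos1, the neuronal synthase, 7.29 ± 0.470 CPM per kb. Lower still were Ddah2 (3.81 ± 0.536 CPM per kb), Prkg1 (2.54 ± 0.299), Nos3 (2.01 ± 0.265) and Pde5a (1.25 ± 0.106). Nos2, the synthase that immune cells induce, stood at 0.0878 ± 0.0807 CPM per kb, with a highest mouse of 0.277 where the lowest mouse for Pde5a had 1.10.

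Several neighbours in this order did not differ beyond their spread. Gucy1a3 was above Ddah1 in 7 of 11 mice and Gucy1a2 above Nos1 in 8 of 11, and both pairs changed places when the length of the longest transcript was used in place of all exons. The ranges of Prkg1 and Nos3 overlapped, with Prkg1 higher in 9 of 11 mice. Those of Ddah2 and Prkg1 overlapped as well, though Ddah2 was higher in 11 of 11. With all exons as length, the ranges did not overlap for Gucy1b3 over Gucy1a3, Ddah1 over Gucy1a2 or Nos1 over Ddah2. Nor did they for Nos3 over Pde5a or Pde5a over Nos2, and each of these pairs was separated in every mouse. With the longest transcript, the mean of Pde5a was 1.64 CPM per kb, above the lowest mouse for Nos3, whose length was unchanged. The ranges of Nos3 and Pde5a therefore overlapped with that length. For Prkg1 the gene model holds coding sequence alone, so its level is per kb of coding length.

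**Figure D1:**
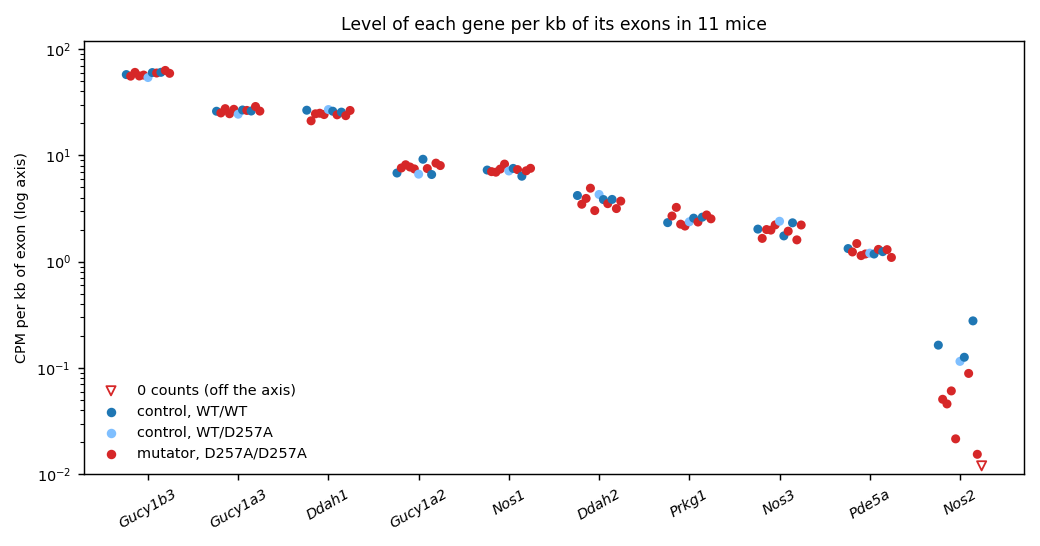
Level of each gene in CPM per kb of exon (log axis), 1 point per mouse, with genes in the order of their mean over 11 mice. Gucy1b3 stands highest with all mice between 54.1 and 63.1, and Nos2 lowest, with mutator mouse 249 at 0 counts drawn as an open triangle below the axis range.

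The balance of the cyclase subunits varied little. Per kb, the level of Gucy1b3 was 1.75 ± 0.0707 times the sum of both alpha subunits in the controls (SD, n = 4) and 1.71 ± 0.0343 times in the mutators (n = 7). The ratio of Gucy1a3 to Gucy1a2 was 3.59 ± 0.468 in the controls and 3.38 ± 0.161 in the mutators, and both ranges overlapped. Gucy1b3 and Gucy1a3 are neighbours on chromosome 3 (NCBIM37, minus strand), at chr3:81835926-81878633 and chr3:81896350-81949799, with 17716 bases between them. Gucy1a2 lies on the plus strand of chromosome 9, at chr9:3532354-3897342.

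Of the 10 genes, Nos2 was the 1 whose control and mutator mice did not overlap. All 10 passed the filter on low counts, and 1 of 10 had an adjusted p-value under 0.05 in the edgeR fit over 17983 genes, against 1.24% of all genes tested. That 1 gene, Nos2, was lower in the mutators, as were 0.801% of all genes tested, and groups without overlap were found in 2.62% of all genes. Since the rule used this contrast, nothing is read from these counts. The median log2 fold change of the 10 genes was 0.01, beside 0.0014 over all genes, with 6 above 0 and 4 below.

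Nos2 encodes the inducible NO synthase of macrophages, microglia and other cells under immune stimulation. Its counts were 84, 21, 33 and 32 in control mice 205, 237, 239 and 246, which came to 0.687, 0.484, 0.529 and 1.16 CPM. In the mutators they were 16, 8, 14, 5, 25, 6 and 0 in mice 207, 211, 217, 236, 240, 248 and 249. The mutators thus ran from 0 through a median of 0.192 to 0.373 CPM, below the lowest control of 0.484. A count of 0 in mouse 249 allows a level of up to 0.0807 CPM at its depth, for counting error alone. The group means were 0.716 ± 0.311 CPM (SD, n = 4) and 0.170 ± 0.127 (n = 7), a log2 fold change of -1.98 with an SE of 0.45, the lowest of all genes tested. These are few reads, and the call was lost without control mouse 205, 237, 239 or 246, or without mutator mouse 211, 236 or 248, where the log2 fold change lay between -2.12 and -1.71.

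The 6 microglia markers, among them Cx3cr1 and Csf1r, all had log2 fold changes below 0, with 0 of 6 under an adjusted p of 0.05 by edgeR and 3 of 6 at an unadjusted p under 0.05, a level that 15.8% of all genes tested passed (2834 of 17983). Their summed level was 209 to 262 CPM in the controls and 198 to 235 CPM in the mutators. Their part in the values of Nos2 was not tested.

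**Figure D2:**
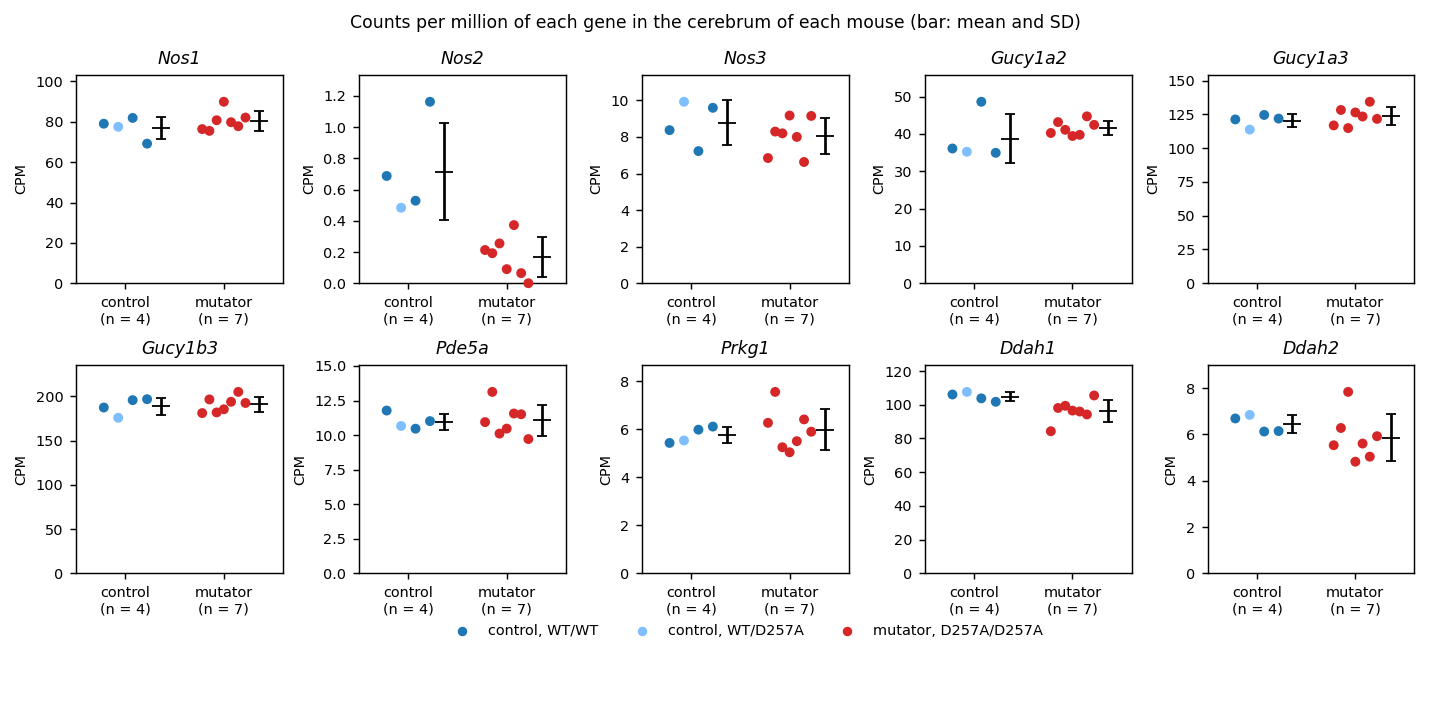
CPM of each of the 10 genes in each mouse, with an own linear axis from 0 for each gene; points are mice, and the black bar gives the group mean and SD. Nos2 is the panel in which all 7 mutators, at 0 to 0.373 CPM, lie below all 4 controls.

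The reads of Nos2 were spread over the gene rather than piled on 1 exon. Nos2 lies at chr11:78734289-78773756 (NCBIM37, plus strand) and its exons were counted in 27 bins in 10 of the mice, the WT/D257A mouse having no exon counts in the files used here. In both genotypes 25 of the 27 bins held at least 1 read, and no bin of any mouse held more than 9. The first 2 bins, 365 bases at the 5' end, had 0 reads in all 10 mice. Summed over bins 3 to 27, the 3 WT/WT mice had 40 to 104 counts and the 7 mutators 0 to 32. A read is counted in every bin it touches, so these sums are not counts of reads. The highest sum, 104, was above the highest gene count of 84. The highest bin sum was also above the highest gene count for Prkg1 (811 beside 663) but below it for Ddah1 (8543 beside 12964). Why bin sums and gene counts differ was not tested.

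Across the 11 mice, the genes whose profile was most like that of Nos2 were Gm16233, Expi, Gm5535, Gm15462 and Clca6. Likeness was the mean absolute difference of centred log2 CPM over 11 mice, and it came to 0.657, 0.701, 0.704, 0.705 and 0.714. All 5 had low counts, between 1 and 98 in any mouse, and share with Nos2 the libraries and the wide scatter of such counts. They were also lower in the mutators, with log2 fold changes of -1.77, -0.99, -1.43, -1.42 and -1.29 in the same order. The likeness was taken over both groups, so it includes the difference between them, and what these genes share was not tested.

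Nos1, the neuronal synthase of scattered interneurons and other neurons, was nearly level between the groups. It had 79.1, 77.6, 81.9 and 69.2 CPM in control mice 205, 237, 239 and 246, and from 75.5 through a median of 79.8 to 90.0 CPM in the mutators. The groups overlapped, and the log2 fold change was 0.06 with an SE of 0.05. The 6 markers listed for NO-producing interneurons summed to 898 to 978 CPM in the controls and 897 to 1047 CPM in the mutators. Most of this sum came from Gad1 and Gad2, which other inhibitory neurons share. Gad1 had a mean of 456 CPM in the controls and 455 CPM in the mutators, and Gad2 290 and 321 CPM. The sum therefore says little about NO-producing interneurons alone. None of these 6 had an adjusted p under 0.05 by edgeR, and 4 of 6 had an unadjusted p under 0.05, beside the 15.8% of all genes. Sst (log2 fold change -0.22, adjusted p = 0.117) and Npy (-0.32, adjusted p = 0.108) had values below 0, whereas Chodl (0.54, adjusted p = 0.197) and Gad2 (0.14, adjusted p = 0.230) had values above 0.

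The exon bins of Nos1 showed which of its annotated alternatives the cerebrum used. Nos1 lies at chr5:118231041-118408849 (NCBIM37, plus strand). Bins 1 to 3, which hold the most upstream first exon, had 0 to 3 counts per mouse, whereas bins 4 and 5, a first exon further downstream, had 13 to 90. Bins 4 and 5 took 97.8% ± 1.79 (SD, n = 10) of the reads over these 5 bins. The last bin, 4476 bases long, took 33.2% ± 1.54 of all bin counts of the gene. Bins 19 and 20, 315 bases that 1 of the transcripts skips, had 75.2% ± 8.84 of the read density of bins 18 and 21 on either side. A read is counted in every bin it touches, which raises the density of shorter bins. Bins 18 and 21 are 142 and 102 bases long, and bins 19 and 20 are 140 and 175. The share of transcripts that skip them was therefore not estimated.

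A further Nos1 exon of 102 bases (bin 27, chr5:118365556-118365657) is the insert of the longer muscle form known as nNOS-mu, and its sequence is given here because it was nearly silent between exons that were read. It is flanked in the genome by AG, the end of the intron before it, and by GT, the start of the intron after it.

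Nos1 bin 27 (NCBIM37, plus strand, whole exon): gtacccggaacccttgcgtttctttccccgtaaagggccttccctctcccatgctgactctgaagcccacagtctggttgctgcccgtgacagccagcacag

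This exon had 0 to 11 counts per mouse, whereas bin 26 on its 5' side had 18 to 115 and bin 29 on its 3' side had 25 to 165. Its count was 6.50% ± 3.28 (SD, n = 10) of the mean of these neighbours, with 5.82% ± 5.54 in the WT/WT mice (n = 3) and 6.79% ± 2.36 in the mutators (n = 7). The groups overlapped. Bin 28, an intron stretch kept by 1 transcript, had 0 to 2 counts.

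Nos3, the endothelial synthase, had 8.37, 9.92, 7.23 and 9.59 CPM in control mice 205, 237, 239 and 246, and from 6.63 through 8.20 to 9.17 CPM in the mutators. The log2 fold change was -0.12 with an SE of 0.11, and the groups overlapped. The 12 endothelial markers summed to 295 to 371 CPM in the controls and 305 to 386 CPM in the mutators. By edgeR, 0 of 12 had an adjusted p under 0.05 and 5 of 12 an unadjusted p under 0.05, beside the 15.8% of all genes. The list was split, with 7 log2 fold changes above 0 and 5 below. Of the 5 genes, the VEGF receptor genes Kdr (0.84, adjusted p = 0.0705) and Flt1 (0.36, adjusted p = 0.0615) and the adhesion gene Pecam1 (0.20, adjusted p = 0.214) had values above 0. The receptor gene Tie1 (-0.29, adjusted p = 0.143) and the transporter gene Slco1a4 (-0.15, adjusted p = 0.278) had values below 0. In every mouse Nos1 was above Nos3 per kb, by 2.74 to 4.47 times.

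The exon bin counts of Nos3 (chr5:23870628-23890292, NCBIM37, plus strand) cover a part of its exons. The genes Gm15587 and Atg9b lie on the opposite strand and overlap 1334 of its 4132 exon bases. The 8 bins of Nos3 that lie wholly under them, 1009 bases, had 0 counts in all 10 mice, and 0 of the 20 other bins did. Whether reads were counted by strand is not given in the sources used here, and reads of these genes could not be told apart without it. With the overlapped bases left out of its length, the level of Nos3 was 2.97 ± 0.391 CPM per kb (SD, n = 11), above that of Prkg1 in 8 of 11 mice. This level takes the gene counts, whereas the zeros were seen in the bin counts alone. The gene counts were 264 to 1023 in the controls and 340 to 616 in the mutators. The bins not wholly overlapped summed to 143 to 555 in the WT/WT mice and 192 to 367 in the mutators. Whether the gene counts also lack the overlapped bases was not tested, so the shorter length may not apply. That length was added after the zeros were seen.

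**Figure D3:**
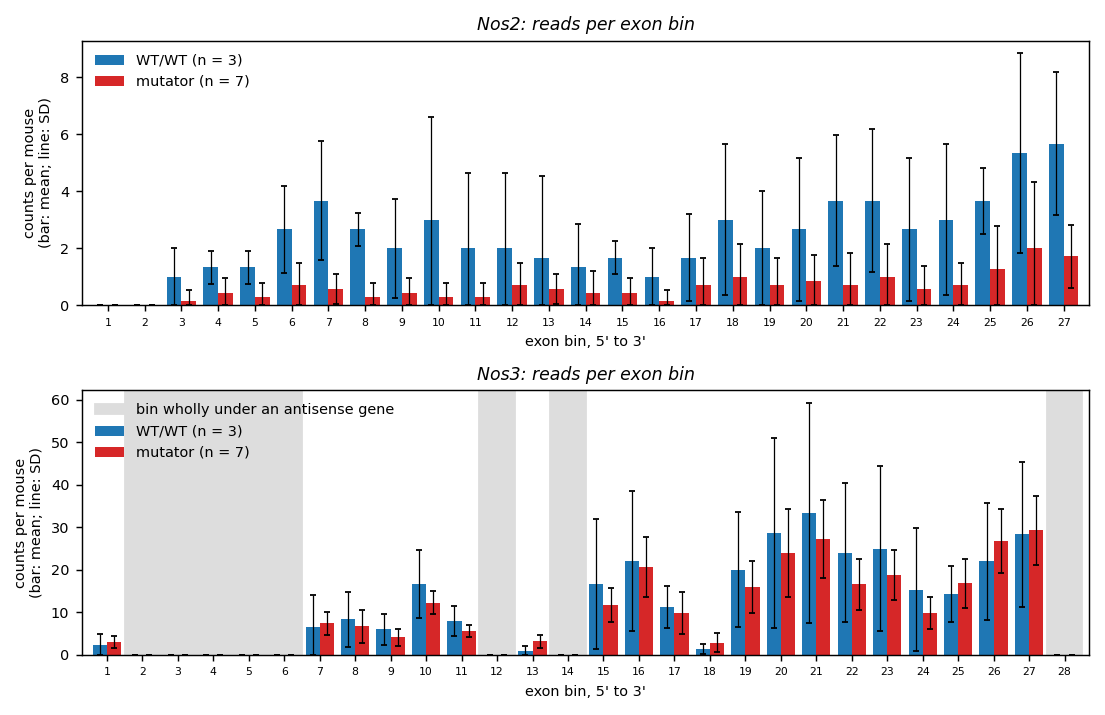
Mean counts per mouse in each exon bin of Nos2 and Nos3, from 5' to 3', in 3 WT/WT and 7 mutator mice, not scaled to depth; lines give the SD, cut at 0. Nos2 has reads in bins 3 to 27, and the 8 shaded bins of Nos3, wholly under antisense genes, hold 0.

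The subunits of soluble guanylate cyclase lay close together in the groups. Gucy1b3 had 187, 176, 196 and 197 CPM in control mice 205, 237, 239 and 246 and from 181 through 192 to 205 CPM in the mutators, with a log2 fold change of 0.02 and an SE of 0.05. Gucy1a3 had 121, 114, 125 and 122 CPM in the same controls and from 115 through 123 to 134 CPM in the mutators, with a log2 fold change of 0.04 and an SE of 0.05. In both genes the groups overlapped in part. For Gucy1a3, 3 of the 7 mutators lay above every control, and for Gucy1b3 mutator mouse 248 lay above every control and control mouse 237 below every mutator.

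Gucy1a2 was the subunit in which 1 control stood apart. It had 36.1, 35.2 and 34.9 CPM in control mice 205, 237 and 246 and 48.6 CPM in mouse 239, above every mutator. The mutators ran from 39.4 through 41.1 to 44.7 CPM, all of them above the other 3 controls. The log2 fold change was 0.10 with an SE of 0.08, and without mouse 239 it was 0.23 and the groups did not overlap. Mouse 239 was left out after the values were seen. The share of all genes separated in this way was not counted, so nothing is read from it. The other genes of the table were not searched for a like pattern in that mouse.

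Pde5a, which breaks down cGMP, had 11.8, 10.7, 10.5 and 11.0 CPM in control mice 205, 237, 239 and 246 and from 9.71 through 10.9 to 13.1 CPM in the mutators. Its log2 fold change was 0.01 with an SE of 0.08, and the mutators ranged on both sides of the controls. Of its 24 bins (chr3:122432076-122562292, NCBIM37, plus strand), bin 6, 1631 bases that belong to a short transcript alone, had 0 to 6 counts, whereas the 72-base bin 5 beside it had 4 to 25.

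Prkg1, the kinase that carries much of the cGMP signal in vessels and in some neurons, had 5.43, 5.53, 5.98 and 6.11 CPM in control mice 205, 237, 239 and 246 and from 5.04 through 5.89 to 7.55 CPM in the mutators. The log2 fold change was 0.06 with an SE of 0.11. The 10 smooth muscle and pericyte markers, cells in which the kinase is known to be abundant, summed to 247 to 268 CPM in the controls and 246 to 283 CPM in the mutators. They were split, with 5 log2 fold changes above 0 and 5 below. Of these markers 1 of 10 was called, against 1.24% of all genes, namely Abcc9, a subunit of a potassium channel, which rose from 11.1 ± 0.939 CPM (SD, n = 4) to 17.5 ± 1.83 CPM (n = 7), a log2 fold change of 0.64 with an SE of 0.08 (adjusted p = 0.000433). Of the 3 others at an unadjusted p under 0.05, Kcnj8 had a log2 fold change of 0.27 (adjusted p = 0.167), the smooth muscle actin gene Acta2 -0.53 (adjusted p = 0.0821) and Cspg4 -0.17 (adjusted p = 0.243).

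Prkg1 (chr19:30643728-31839312, NCBIM37, minus strand) has 2 alternative first exons, known as those of the alpha and beta forms of the kinase, each with a promoter of its own. Both promoters are given here because the exon counts separated their use. They are RefSeq's windows on GRCm38.p6, minus strand, of 300 bases around the start of each transcript, at chr19:31764984-31765283 and chr19:31664321-31664620. Capitals mark the GC box GGGCGG, searched on both strands.

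Prkg1 upstream promoter, alpha form: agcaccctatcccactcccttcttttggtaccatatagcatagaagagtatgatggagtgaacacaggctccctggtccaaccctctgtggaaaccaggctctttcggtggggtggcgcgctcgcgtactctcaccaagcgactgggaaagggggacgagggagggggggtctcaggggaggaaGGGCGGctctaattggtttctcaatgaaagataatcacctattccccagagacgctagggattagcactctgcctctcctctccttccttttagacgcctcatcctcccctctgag

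Prkg1 downstream promoter, beta form: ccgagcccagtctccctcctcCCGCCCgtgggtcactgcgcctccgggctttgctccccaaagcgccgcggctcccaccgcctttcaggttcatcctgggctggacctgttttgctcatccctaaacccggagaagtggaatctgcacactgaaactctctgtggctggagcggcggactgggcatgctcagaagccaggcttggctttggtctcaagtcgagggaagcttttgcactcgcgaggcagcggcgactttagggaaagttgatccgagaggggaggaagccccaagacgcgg

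The upstream window held 10 CG dinucleotides and the downstream window 20, beside a median of 7 over 32851 mouse promoter windows. Each held 1 GC box, as did 35.7% of all windows (1 or more), and their GC contents were 55.3% and 62.3%. Of the 10 genes, 8 had windows in the table, and Nos2 and Nos3 did not.

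Reads of Prkg1 came almost wholly through the downstream first exon. Bin 18, the beta exon of 311 bases, had 20 to 57 counts per mouse, whereas bin 19, the alpha exon of 266 bases, had 0 to 6. Over the 10 mice, 24 of 411 first-exon reads (5.84%) fell on the alpha exon. Its share was 8.57% to 9.52% in the 3 WT/WT mice and 0% to 8.06% in the 7 mutators. The shares did not overlap, but the WT/WT shares rest on 2, 3 and 6 reads of the alpha exon, and this comparison was picked after its values were seen.

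**Figure D4:**
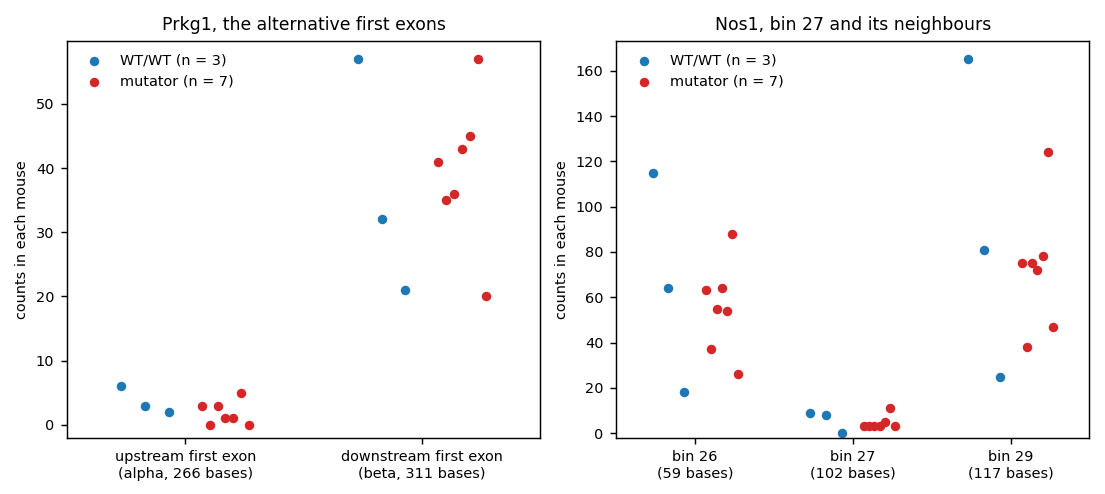
Counts in each mouse for both first exons of Prkg1 (left) and for the 102-base exon of Nos1 with the exons on either side (right), not scaled to depth. The alpha exon holds 0 to 6 counts and the beta exon 20 to 57, and the Nos1 exon holds 0 to 11 between neighbours of 18 to 165.

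Ddah1, the more abundant of both hydrolases of asymmetric dimethylarginine, had 106, 108, 104 and 102 CPM in control mice 205, 237, 239 and 246. The mutators ran from 84.3 through a median of 96.5 to 106 CPM, and 6 of the 7 lay below every control. Mutator mouse 249, at 105.5 CPM, lay within the controls, and without it the groups did not overlap. Leaving out mouse 249 was chosen after the values were seen. The share of all genes separated in this way was not counted, so nothing is read from it. The log2 fold change was -0.12 with an SE of 0.05. Ddah2, the other hydrolase, had 6.69, 6.84, 6.12 and 6.14 CPM in the same controls and from 4.82 through 5.60 to 7.83 CPM in the mutators, with a log2 fold change of -0.14 and an SE of 0.11. Per kb, Ddah1 was above Ddah2 by 5.08 to 8.01 times in the 11 mice.

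**Figure D5:**
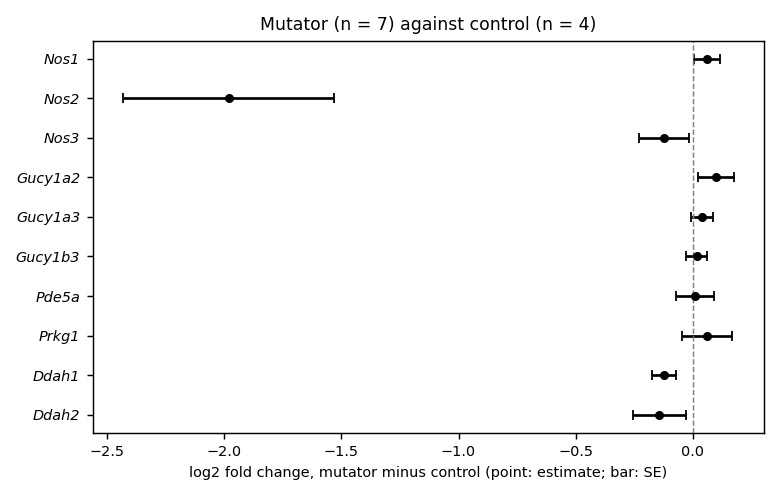
Log2 fold change of each gene, mutators (n = 7) minus controls (n = 4), with its SE as a bar and 0 as a dashed line. Nos2 lies at -1.98, and the other 9 genes lie between -0.14 and 0.10.

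The use of single exons within these genes was compared in the 3 WT/WT and 7 mutator mice. Of the 193 bins of the 10 genes, 135 passed the filter, none of them in Nos2, and 0 of 135 had an adjusted p under 0.05 by edgeR's diffSpliceDGE, against 0.0237% of 206930 bins tested. At an unadjusted p under 0.05 there were 2 of 135, in Nos3 and Ddah1. With limma's diffSplice, 0 of 135 had an adjusted p under 0.05 and 5 an unadjusted one.

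The other genes of the route, 62 in 7 lists, held 2 calls in the edgeR fit. Of the 57 that passed the filter, 0 were higher and 2 lower at an adjusted p under 0.05. Over all 17983 genes tested, 79 were called higher and 144 lower (0.801%), or 1.24% in either direction. At an unadjusted p under 0.05 there were 12 of 57, beside the 15.8% of all genes. DESeq2 gave 0 higher and 3 lower. The median log2 fold change of the 57 genes was 0.0029, with 31 above 0 and 26 below and a range from -0.32 to 1.12. The highest was that of Cnga3, a subunit of a cGMP-gated channel, at 0.168 ± 0.0892 CPM (SD) among the 4 controls and 0.422 ± 0.147 CPM among the 7 mutators, with an SE of 0.37 and an adjusted p of 0.135. It rests on 2 to 36 counts per mouse, its groups overlapped, and it was named after its values were seen.

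Of 7 partners of the synthases, 3 had an unadjusted p under 0.05 by edgeR and 1 of them, Dlg4, was called. The others were Dynll1 (log2 fold change -0.13, adjusted p = 0.281) and Nostrin (0.47, adjusted p = 0.316), which went opposite ways. Dlg4, the postsynaptic scaffold PSD-95 that tethers the neuronal synthase, fell from 641 ± 56.0 CPM (SD, n = 4) to 553 ± 26.5 CPM (n = 7), a log2 fold change of -0.21 with an SE of 0.05 (adjusted p = 0.049993). Among 12 effectors of cGMP tested, 2 had an unadjusted p under 0.05, Itpr1 and Cnga3, and Itpr1 was called. Itpr1, a calcium release channel, fell from 751 ± 36.2 to 666 ± 20.1 CPM, a log2 fold change of -0.17 with an SE of 0.04 (adjusted p = 0.0498). Dlg4 and Itpr1 both stood at the threshold. Leaving out any mouse other than control 205 or mutator 249 ended the call of Dlg4 (adjusted p from 0.0531 to 0.260), and leaving out any mouse other than control 205 ended that of Itpr1 (adjusted p from 0.0506 to 0.191).

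In the other 5 lists no gene passed the threshold in the edgeR fit over 17983 genes, and the gene with the smallest p of each is given. Of 6 genes for the cofactor tetrahydrobiopterin, 0 had an unadjusted p under 0.05, and Qdpr, which recycles the cofactor, had a log2 fold change of -0.20 (SE 0.09, adjusted p = 0.324). Qdpr was called in 1 of the 19 alternatives. Of 6 tested genes of arginine supply, 2 had an unadjusted p under 0.05, and Ass1, which rebuilds arginine from citrulline, had 0.14 (SE 0.06, adjusted p = 0.224). Of 4 genes that remove NO, 1 did, Ngb or neuroglobin, with a log2 fold change of 0.49 (SE 0.17, adjusted p = 0.171). Of 10 tested natriuretic peptide and cyclase genes, 1 did, the receptor cyclase gene Gucy2g, with -0.32 (SE 0.09, adjusted p = 0.0848), and DESeq2 called it with an adjusted p of 0.0178. Of 12 phosphodiesterase genes, 3 did, and Pde1b, a calmodulin-dependent enzyme of striatal and other neurons, had a log2 fold change of -0.16 (SE 0.05, adjusted p = 0.131).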

How the data were processed

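Poly(A)+ RNA of 11 cerebra was sequenced as 100-bp paired reads. According to the study's methods and the submitters' processing notes, the authors aligned reads to mm9 with TopHat2 2.0.6 and Bowtie2 2.0.2.0, counted them per Ensembl gene with HTSeq 0.5.3p9, and deposited raw counts per gene, and per bin of a flattened annotation for 10 mice. Totals per mouse ran from 28249345 to 121182250 gene counts and from 24640608 to 105836056 bin counts. Reads in no bin (20.6% to 23.4%) were left out. The authors' comparison tables of fold changes and p-values were not used, and their listed read totals served to compare depths alone.

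The members and gene lists were chosen with earlier results of these data known. Gene counts were fitted in edgeR 4.0.16 (R 4.3.3; filterByExpr, TMM, quasi-likelihood), and p-values were adjusted over all genes tested by the Benjamini-Hochberg method, with a threshold of 0.05. Differences are mutator minus control, and SEs come from the fold change and its F statistic. CPM use the TMM factors, and overlap was read from log2 CPM with a prior count of 2. Bin use was tested with diffSpliceDGE. Gene models, lengths and bin positions were rebuilt from GENCODE vM1 on NCBIM37 (mm9). Bin numbers matched the files for 9 of 10 genes, and no bin position is given for Ddah2. Named genes were the 10 members, called pathway genes, the smallest p of each list, called markers and Polg. The 5 genes most like each called member were also named. Other markers, Dynll1, Nostrin and Cnga3 were named after their values were seen. Each mouse is taken as a replicate. DESeq2 1.42.0, limma 3.58.1, other scalings and filters, the WT/WT controls alone, a depth covariate, mitochondrial genes left out, and each mouse left out were the alternatives. The fits were tested on simulated data: edgeR recovered 200 of 200 changed genes with 12 false calls among 17922 genes, and diffSpliceDGE 198 of 200 changed bins with 35 among 49454. False bins were 15.0% of the bins called. The changed genes and bins were drawn from those with higher mean counts, so counts as low as those of Nos2 were not covered. All simulated gene changes were of a single size, larger than those of Dlg4, Itpr1 and every member but Nos2. Recovery of changes that small was not covered.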

Additional observations from a re-analysis of the deposited data

Results flagged for a closer look

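The measures of the 10 genes within each group, and the gene counts per aligned read in the mutators, gave 21 groups of 4 or 7 mice. A mouse was flagged where its gap passed a cut-off that about 1 in 20 such groups pass by chance. Both flagged gaps lay beyond the cut-off, and the chance of gaps as large as theirs was not computed. In 2 of the 21 groups 1 mouse stood far from the others. For Gucy1a2 in the controls, mouse 239, at 48.6 CPM beside 34.9 to 36.1 CPM in the other 3, made up 0.916 of the range as its gap to the nearest. For gene counts per aligned read in the mutators, mouse 248, at 3.00 beside 0.744 to 0.772 in the other 6 mutators, made up 0.988 of the range. Mouse 248 thus had more gene counts than aligned reads listed for it, and the reason was not tested. Without mouse 248 the log2 fold change of Nos2 was -1.79.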

How the results depend on the processing

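Of 190 log2 fold changes of the 10 genes under the 19 alternatives, 182 stayed on the same side or within 1 SD, 8 of Nos2 lost the call and 0 reversed a call. Within 1 SD, Gucy1b3, Pde5a and Prkg1 had values on both sides of 0. Of 133 values of the 7 named pathway genes, 27 lost and 2 gained a call. The WT/WT controls alone and control mouse 237 left out are the same fit, and it stands under both names in these counts. The 223 calls over all genes became 615 with DESeq2, 346 with no filter and 50 with the WT/WT controls alone, and ranged from 50 to 412 with a mouse left out. The 1 member called became 0 with the WT/WT controls alone and ranged from 0 to 1 with a mouse left out. The 2 pathway genes called lower became 0 with RLE factors, with upper-quartile factors, with a mean count of at least 10 and with the WT/WT controls alone, 3 with DESeq2, and ranged from 0 to 2 with a mouse left out, while called higher was 0 throughout. The 1 member without overlap of the groups ranged from 1 to 2 with a mouse left out, an alternative added after seeing the data. Bins called in the 10 genes were 0 under all 12 alternatives, and over all bins the 49 calls ranged from 5 to 186 with a mouse left out and were 25 with limma. The causes of these shifts were not tested. With the longest transcript as length, Nos1 had 8.05, Ddah2 4.53, Prkg1 2.86 and Pde5a 1.64 CPM per kb. Low counts limit Nos2 and the first exons of Prkg1. No paired analysis was possible because the labels number each mouse on its own and pair none across the groups.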
